A study of Rattus norvegicus with 13 samples.

Results

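Olfactory receptor genes, named Olr followed by a number in the rat, were examined in the thyroid. Genes were selected on detection, with the falls of Olr1262 and Olr278 already known: of the 1172 Olr genes on the array, measured by 1242 probes of 60 bases, 26 had a probe that the scanner software flagged as well above background on all 13 arrays, each through 1 probe. The arrays, 1-colour Agilent arrays, were hybridised with thyroid RNA from male Wistar rats whose mothers had been given either 1 mg/kg/day of potassium iodide (KI-treated group, 6 animals) or saline (control group, 7 animals). Dosing was by gavage for 8 days from gestational day 9 to 16 according to the methods, and the thyroids of the offspring were collected 30 days after weaning. The litter of each animal is not given in the sources used here, so littermates could not be told apart from unrelated animals, and p-values measure the spread between these samples. KI, the agent of iodine thyroid blocking, was given to the mothers and not to the animals measured. A value is log2 of the probe's signal after subtraction of the array's own 75th percentile, and a difference is the mean of KI-treated animals minus that of controls on this log2 scale. Signals of different probes do not measure relative abundance, because probes bind with different strength. In whole gland RNA, fewer cells of a type and less RNA per cell cannot be told apart.

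Olfactory receptors are G protein-coupled receptors and form the largest gene family of the rodent genome. In the nose, each olfactory sensory neuron expresses a single receptor gene from 1 allele, and binding of an odorant activates the G protein Gnal, the cyclase Adcy3 and a cyclic nucleotide-gated channel formed by Cnga2, Cnga4 and Cngb1. Transcripts of some receptors have been found in tissues outside the nose, the best known being the class I receptor Or51e2, whose rat gene is Olr59. The genes lie in clusters of related copies, some of them near-identical, and have a short coding sequence without introns. A probe can therefore bind the RNA of close neighbours or any transcript that reads through a cluster.

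The probe sequences are shown because they define what each value measured. Coordinates are those of the array files (build rn4), and current names come from RefSeq (GRCr8). The brightest probe, for Olr1416 (now Or2t48e), lies at chr10:44148855-44148914. The probes with known falls in the KI-treated group lie at chr8:41027755-41027814 for Olr1262 (Or8b54c) and at chr1:166132638-166132697 for Olr278 (Or5p76b). The probe of Olr901 (Or6c6i), at chr7:3457973-3458032, and those of Olr325 (Or4d6) and Olr390 (Or13l2), at chr1:214964030-214964089 and chr2:192189346-192189405, are shown for the comparisons they enter:
Olr1416: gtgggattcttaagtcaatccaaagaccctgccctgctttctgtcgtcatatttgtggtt
Olr1262: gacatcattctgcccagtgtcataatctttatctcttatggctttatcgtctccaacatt
Olr278: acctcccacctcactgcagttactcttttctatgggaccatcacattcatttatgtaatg
Olr901: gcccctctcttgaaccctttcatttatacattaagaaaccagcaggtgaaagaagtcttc
Olr325: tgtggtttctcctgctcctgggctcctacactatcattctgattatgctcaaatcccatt
Olr390: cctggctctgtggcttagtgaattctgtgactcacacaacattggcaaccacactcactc

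The probes of Olr714 (Or4a80, chr3:74123752-74123811) and Olr716 (chr3:74172202-74172261) were the only 2 members whose probes overlapped in sequence by more than 15 bases. Shifted by 5 bases, they matched at 53 of 55 aligned positions, and the capitals mark their longest shared run, of 26 bases. They are therefore not separate measurements of 2 genes:
Olr714: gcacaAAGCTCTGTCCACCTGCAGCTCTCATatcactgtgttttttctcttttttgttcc
Olr716: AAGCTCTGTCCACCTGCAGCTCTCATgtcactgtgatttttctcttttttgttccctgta

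Most olfactory receptor probes gave no signal in the thyroid. The 26 detected probes were 2.09% of the 1242, against 45.5% of all 45598 probes, and 911 Olr probes (73.3%) were above background on no array. A further 175 were flagged on a single array and 10 on 12 arrays. Of the other chemosensory families, 4 of 111 Vom1r probes (3.60%), 3 of 98 Vom2r probes (3.06%), 1 of 5 Tas1r probes (for Tas1r1) and none of 18 Taar or 34 Tas2r probes were detected on all arrays. The share was not tested, since the flag chose the genes.

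**Figure D1:**
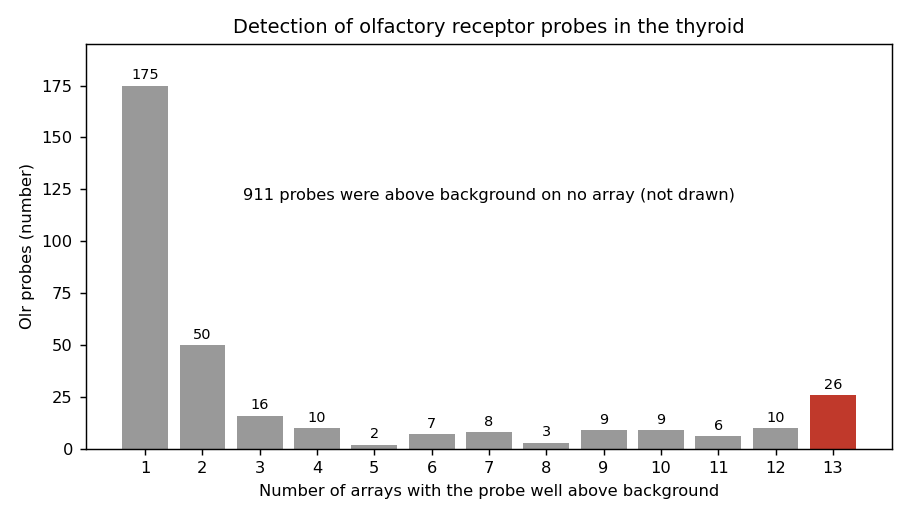
Number of olfactory receptor probes (vertical axis) by the number of arrays on which they were well above background (horizontal axis). The 26 probes flagged on all 13 arrays, in red, exceed every count from 3 to 12 arrays, while 911 probes were flagged on no array.

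KI-treated animals had 62 to 130 flagged Olr probes (median 92), and control animals had 59 to 123 (median 96). The groups overlapped almost wholly (exact two-sided permutation test, p = 0.974). The array with the most flagged Olr probes, KI-treated 3, and the one with the fewest, control 6, also had the most and the fewest flagged probes over all genes (28184 and 22227). The dimmest members were Olr546 (mean -2.85), Olr278 (-2.74) and Olr1516 (-2.73). Just outside the rule, on 12 arrays, were Olr857 (-1.88), Olr1694 (-2.79) and Olr1143 (-2.88), so the brightness of these probes did not separate them from the members.

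The members came from several of the large receptor clusters. On rn4, 8 lay on chromosome 1 (1 of them on its unplaced part), 7 on chromosome 10, 5 on chromosome 3, 3 on chromosome 8 and 1 each on chromosomes 2, 7 and 11. Chromosome 10 thus held 26.9% of the members, and 137 of all 1242 Olr probes. A group of 3 neighbouring class I genes, the fish-like receptors with water-soluble ligands, was among them on chromosome 1: Olr59, Olr63 (Or51e1) and Olr68 (Or51a7b). The share of class I genes was 11.5% of the members and 10.3% of the other named Olr probes. The probes of Olr59 and Olr63 began at positions 2740 and 2993 of their transcripts, whereas those of the other members began at 864 or before. For 5 members (19.2%) the array annotation listed more than 1 RefSeq gene, against 8.39% of the other Olr probes. These were Olr716, Olr901, Olr1262, Olr1439 and Olr1452, whose signal cannot be assigned to 1 copy. The median GC content of the probes was 45% among the members and 40% among the others.

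For most member genes with a second probe, that probe gave no signal. In all, 6 member genes had 7 other probes, of which 5 were above background on no array. The pairs of Olr1416 and Olr1262 show this for 2 genes of high signal. Each pair targets the same transcript, NM_001000009 for Olr1416 and NM_001000803 for Olr1262. The other probe of Olr1416, at chr10:44148021-44148080, had a mean of -6.08 and that of Olr1262, at chr8:41027203-41027262, a mean of -6.19, neither well above background on any array:
Olr1416 other probe: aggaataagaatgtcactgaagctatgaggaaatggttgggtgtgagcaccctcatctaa
Olr1262 other probe: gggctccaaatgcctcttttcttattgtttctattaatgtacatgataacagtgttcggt

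The other probes of Olr68 and Olr1516 and one of those of Olr1366 were likewise flagged on no array. The remaining probe of Olr1366 was flagged on 4 arrays and that of Olr63 on 10. The member probe of Olr1366 targets XR_594584, a non-coding transcript, whereas its other probes target NM_001000980 and XM_008767521. For 4 of these 6 genes, the signal of the member probe was thus not met by any signal elsewhere along the gene.

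Olr1416 gave the brightest signal, at the 60.2 percentile of the probes detected on all arrays. Its values ran from 0.80 over a median of 0.87 to 0.89 in the KI-treated group and from 0.88 over 1.04 to 1.67 in the control group. The 6 KI-treated animals lay within 0.1 of each other, while controls 4 and 6 stood above all others. Next came Olr1335 (mean -0.38), Olr3 (-0.52), Olr1262 (-0.66), Olr325 (-0.67), Olr567 (-0.87), Olr390 (-1.01) and Olr386 (-1.22). All members other than Olr1416 lay below the 75th percentile of their arrays on average, down to the 2.65 percentile of detected probes for Olr546.

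**Figure D2:**
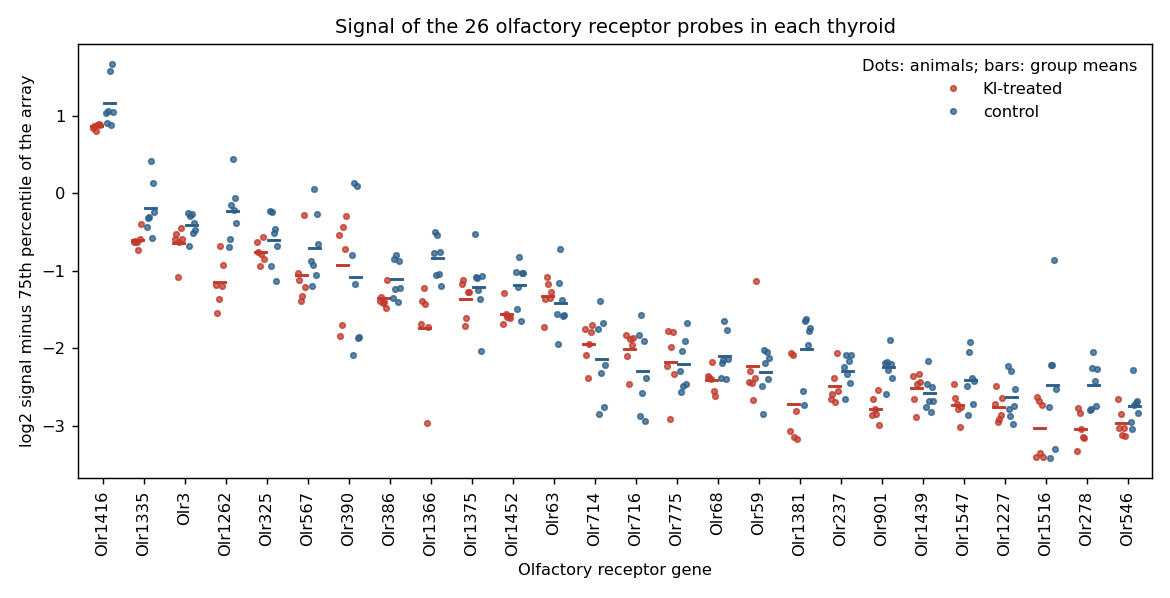
Log2 signal minus the array's 75th percentile (vertical axis) of the 26 olfactory receptor probes, ordered by their mean, in each of 6 KI-treated (red) and 7 control (blue) thyroids; bars are group means. Olr1416 alone has a mean above 0, and Olr1366 is the gene whose groups do not overlap.

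The comparison of the groups asks whether iodide given to the mother went with a different signal in the offspring's thyroid. No member passed 0.05 after Benjamini-Hochberg adjustment in limma, and neither did any other of the 25717 probes tested (0.0% called). Without adjustment, 9 members were lower in the KI-treated group at p under 0.05 and 0 higher, where 7.01% of all probes tested were lower (7.19% of the 20754 detected on all arrays) and 5.71% higher. Setting aside Olr1262 and Olr278, whose fall was known, 7 of 24 were lower. The differences of 17 of these 24 members were below 0 (19 of 26 with the pair), against 60.7% of all probes. Their median was -0.23 (-0.24 with the pair), against -0.08 over all probes tested and -0.09 over those detected on all arrays. With no filter, so that undetected probes entered as well, the median over all 45598 probes was -0.17. Most members were dim, and they were not compared with probes of like signal. The 52 other Olr probes tested, detected on fewer arrays, had a median of -0.28, with 43 below 0, 5 lower and 0 higher at the unadjusted threshold.

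**Figure D3:**
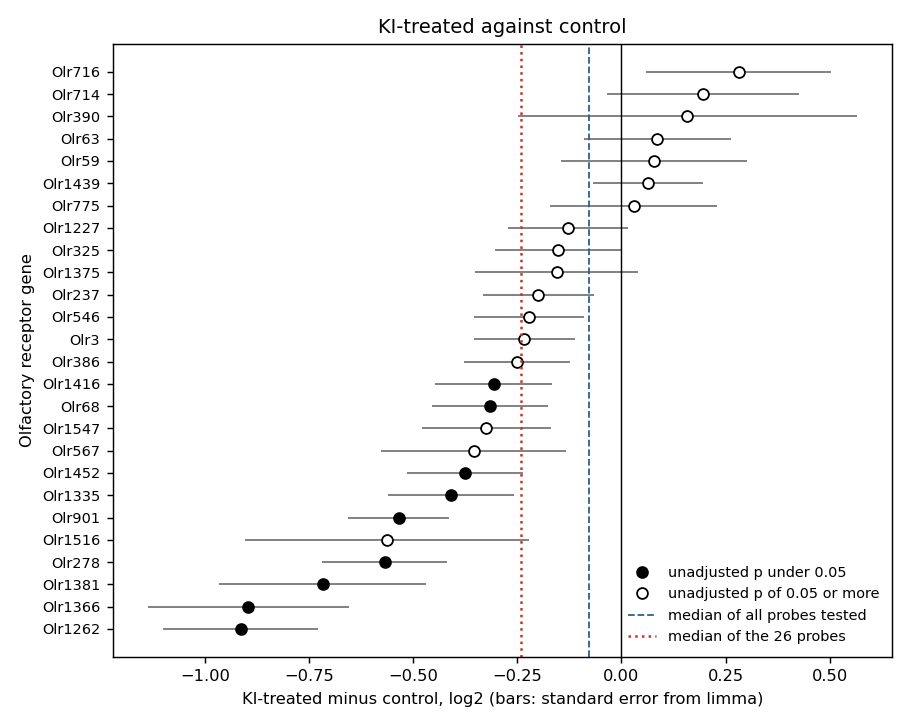
KI-treated minus control on the log2 scale (horizontal axis) for each olfactory receptor gene, with the standard error from limma as a bar; filled circles mark an unadjusted p under 0.05. The 9 filled circles all lie below 0, and the median of the 26 probes (-0.24, dotted) lies below that of all probes tested (-0.08, dashed).

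Olr1262 had the lowest difference, close to that of Olr1366, which was lower with array weights and with the slide, the scan session or the replicate number as a block; Olr1516 was the lowest with array weights. It is described without a test, as its fall was known when the genes were chosen. The values in the KI-treated group were -1.55 at the lowest, -1.19 at the median and -0.68 at the highest, and those in the control group -0.69, -0.22 and 0.44. Of the 6 KI-treated animals, 5 lay below every control, and KI-treated 4 lay just above control 1. The difference was -0.91 (SE 0.19), a signal 0.531 times that of the controls. Within the 3 scan sessions the difference was -1.65, -0.46 and -0.43.

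Olr278 is likewise described only. Its values were -3.32, -3.09 and -2.77 in the KI-treated group and -2.80, -2.42 and -2.05 in the control group, in the order lowest, median and highest. Again 5 of 6 KI-treated animals lay below every control, and the groups overlapped by the values of KI-treated 2 and of controls 1 and 2. The difference was -0.57 (SE 0.15), and it fell to -0.26 with normexp background correction and quantile normalization. The signal of Olr278 was among the 3 lowest of the members.

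Olr1366 (now Or1f20) was the 1 member whose groups did not overlap, a pattern that 0.323% of all probes tested showed in the lower and 0.257% in the higher direction. Its values were -2.96, -1.56 and -1.22 in the KI-treated group and -1.19, -0.78 and -0.50 in the control group. KI-treated 5 lay far below the other KI-treated animals, which lay between -1.73 and -1.22. The difference was -0.90 (SE 0.24), with an unadjusted limma p of 0.00217 and an adjusted p of 0.342. The exact two-sided permutation test gave p = 0.000583, the smallest it can give, which restates that the groups did not overlap. Without KI-treated 5 the difference was -0.65, and with the slide as a block it was -0.99. Within scan sessions 1, 2 and 3 it was -0.65, -1.49 and -0.33, with KI-treated 5 in session 2. The array annotation listed 0 RefSeq genes for this probe, and its current name was matched by symbol only. The probe shares a run of 17 bases with that of LOC102553680, which was detected on 13 arrays (mean -1.58). The r of these 2 probes within groups was 0.83. Which transcript gave the signal was not tested.

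Olr901 had values of -2.99, -2.82 and -2.54 in the KI-treated group and -2.59, -2.20 and -1.90 in the control group. Only KI-treated 5 lay above a control animal, control 2. The difference was -0.53 (SE 0.12; adjusted p = 0.342 in limma; exact two-sided permutation p = 0.00175). It was -0.48, -0.40 and -0.70 within the 3 scan sessions.

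Olr1381 (Or1f30), a neighbour of Olr1366 on chromosome 10, had values of -3.17, -2.94 and -2.06 in the KI-treated group and of -2.73, -1.77 and -1.63 in the control group. The KI-treated animals fell into 2 levels, with KI-treated 2 and 3 near -2.1 and the other 4 below -2.8. KI-treated 2 and 3 were also the 2 KI-treated animals of scan session 1, and the part of the session in these levels was not tested. The difference was -0.72 (SE 0.25; adjusted p = 0.354 in limma; exact two-sided permutation p = 0.0280). Within scan sessions 1, 2 and 3 it was -0.37, -0.37 and -1.36. Olr1375 (Or1f26), the third of these neighbours, overlapped wholly between the groups, with a difference of -0.16 (SE 0.20).

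Olr1335 (Or10g9b) ranged from -0.73 to -0.40 in the KI-treated group (median -0.62) and from -0.58 to 0.42 in the control group (median -0.31), with controls 4 and 6 again highest. The difference was -0.41 (SE 0.15; adjusted p = 0.359 in limma; exact two-sided permutation p = 0.00874). Olr1452 (Or2t44b) differed by -0.38 (SE 0.14), Olr68 by -0.32 (SE 0.14) and Olr1416 by -0.31 (SE 0.14), each with all 6 KI-treated animals below the control median. The unadjusted calls of Olr68 and Olr1416 were lost without control 4 or without control 6, among other animals, with no filter, with array weights and with the replicate block. That of Olr68 was also lost with the slide as a block, with quantile normalization, alone or after normexp, and in the deposited values. The unadjusted call of Olr1452 was lost only with the replicate block (unadjusted limma p of 0.0712).

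Controls 4 and 6 also had the highest summed signal of the thyroid follicle markers (1864 and 1857, in units of the array's 75th percentile, against 1197 to 1352 in the KI-treated group). Of these 12 markers, such as thyroglobulin (Tg), 11 were detected on all arrays and Slc26a4 on none. They were also the highest of the 7 controls for Olr1416, Olr1335, Olr68, Olr567 and Olr1262. Controls 4 and 6 were the 2 control animals of scan session 1. In sessions 1, 2 and 3 the difference was -0.79, -0.10 and -0.12 for Olr1416, -0.89, -0.16 and -0.36 for Olr1335, and -0.68, -0.22 and 0.05 for Olr68. The part of the follicle markers in these differences was not tested.

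The members of least fall held both other class I genes. Olr59 lay between -2.66 and -1.13 in the KI-treated group and between -2.84 and -2.03 in the control group, with a difference of 0.08 (SE 0.22) that became -0.14 without KI-treated 6, the 1 animal far above the rest. Olr63 differed by 0.09 (SE 0.18), Olr716 by 0.28 (SE 0.22), Olr714 by 0.20 (SE 0.23), Olr390 by 0.16 (SE 0.41), Olr1439 by 0.06 (SE 0.13) and Olr775 by 0.03 (SE 0.20). These 7 were the members above 0, and for all of them but Olr716 the sign turned under 1 or more alternatives. The remaining members, Olr3, Olr237, Olr325, Olr386, Olr546, Olr567, Olr1227, Olr1516 and Olr1547, had differences between -0.56 and -0.13, none of them past 0.05 before adjustment. With a block for slide or scan session, Olr386 was lower at the unadjusted threshold, by -0.33 and -0.30 (unadjusted limma p of 0.0221 and 0.0255). Under other alternatives, among them single animals left out, Olr3, Olr237, Olr386, Olr546, Olr567, Olr1516 and Olr1547 were each lower at the unadjusted threshold in at least 1 fit. Among these genes Olr1516 varied most, with control 5 at -0.87 and every other animal at -2.21 or below.

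The members did not vary as one group. After subtraction of the group means, the median Pearson r over the 325 pairs of members was 0.16 across the 13 arrays, against 0.036 over all pairs of probes detected on all arrays. The share of pairs over 0.7 was 4.62% (15 pairs) among the members and 7.69% among all probes. These correlations are descriptions, since all pairs share the same arrays and their scaling.

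**Figure D4:**
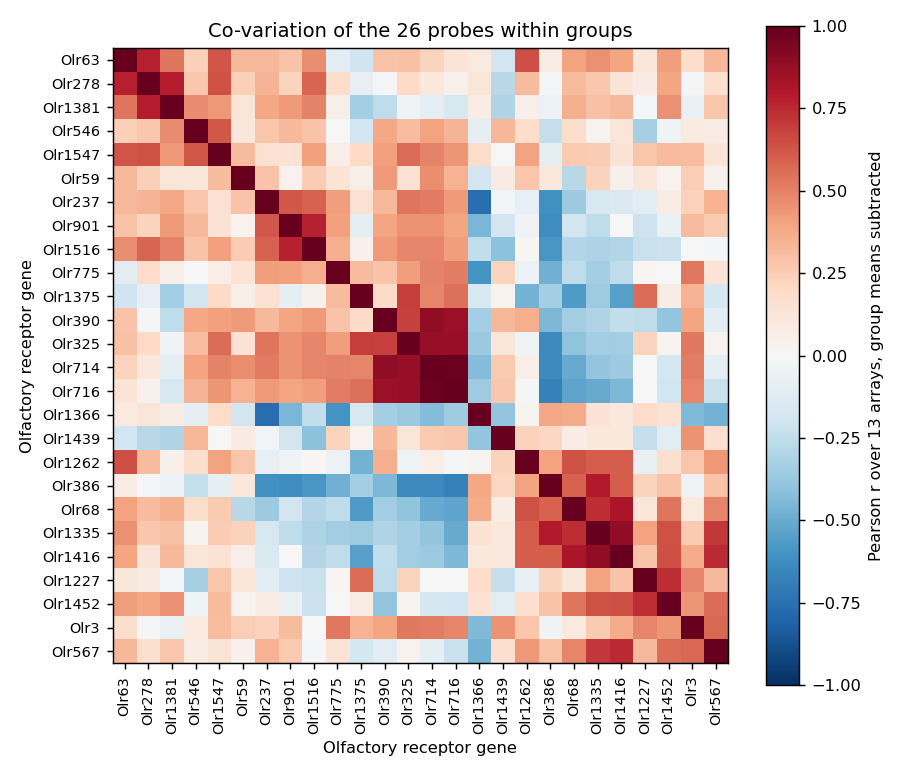
Pearson r (colour) between the 26 olfactory receptor probes over 13 arrays after subtraction of group means, ordered by average linkage. A red square of Olr390, Olr325, Olr714 and Olr716 (r from 0.69 to 0.98) and a second of Olr68, Olr1335 and Olr1416 can be seen, with further single pairs of high r such as Olr278 and Olr1381 (0.78).

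The highest r was that of Olr714 and Olr716 (0.98), whose probes share most of their bases. Olr325 and Olr390 varied with them, although their probes have no run of 15 bases in common with either and lie on other chromosomes. In this set of 4, picked from the correlations, r ran from 0.69 (Olr325 with Olr390) to 0.98. Olr390 spanned -1.85 to -0.30 in the KI-treated group and -2.09 to 0.12 in the control group, the largest spread within groups of all members (SD 0.82). Controls 3 and 5 were highest and control 2 lowest. Values of Olr714 ran from -2.38 to -1.70 and from -2.85 to -1.40. Neither gene separated the groups.

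**Figure D5:**
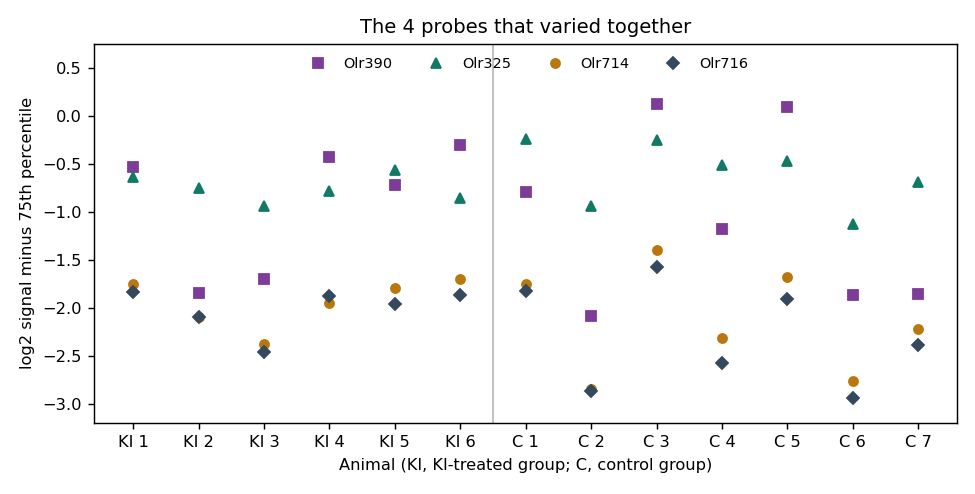
Log2 signal minus the array's 75th percentile (vertical axis) of Olr390, Olr325, Olr714 and Olr716 in each animal (horizontal axis; the line divides 6 KI-treated from 7 control animals, whose order has no meaning). All 4 are low in controls 2 and 6 and high in control 3, and for each gene the control animals span a wider range than the KI-treated animals.

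A second set held Olr1416, Olr1335 and Olr68, with r = 0.88 for Olr1335 and 0.82 for Olr68 with Olr1416. Their values stood highest in controls 4 and 6, as did those of Olr567 and Olr1262. Olr567 also varied with Olr1416 (r = 0.74), and Olr386 with Olr1335 (r = 0.79). Olr278 varied with Olr1381 (r = 0.78) and with Olr63 (r = 0.78), and Olr901 with Olr1516 (r = 0.77). The lowest r was that of Olr237 and Olr1366 (-0.76), and Olr386 ran against Olr716 (-0.67).

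The genes that act with olfactory receptors in the nose were in part detected. Of 26 genes of olfactory transduction and receptor transport, 24 had a probe, 15 were above background on all arrays and 4 on none: the channel subunits Cnga2 and Cnga4, the exchanger Slc24a4 and the kinase Camk2a. Of the 16 tested, 0 passed after adjustment, 1 was lower and 0 higher at the unadjusted threshold, with a median difference of -0.15. Among the bright probes were those of Gnas, the stimulatory G protein subunit used in most tissues (7.77), the G protein subunit Gnb1 (3.44), the olfactory G protein subunit Gnal (1.69), the export factor Reep1 (1.13) and the cotransporter Slc12a2 (1.11). Gnas was the 1 lower gene, with a difference of -0.31 (SE 0.12; adjusted p = 0.367 in limma). Gnal differed by 0.16 (SE 0.18) and the cyclase Adcy3, near the lower end of the signals at -2.73, by -0.01 (SE 0.16).

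Markers of olfactory sensory neurons were detected in part. Omp, the olfactory marker protein, was flagged on 3 of 13 arrays, and the receptor transporters Rtp1 and Rtp2 and the neuron protein Stoml3 on 1 each. Of the 15 markers with a probe, 6 were detected on all arrays: Ebf1, Gnal, Ric8b (-0.74), Adcy3, Gng13 (-2.78) and Cngb1, the channel subunit that pairs with the undetected Cnga2 and Cnga4, at -1.52. Their summed signal over all 15 overlapped between the groups (6.49 to 9.55 in the KI-treated and 6.51 to 10.4 in the control group). Ebf1 (1.76) and Gnal (1.69) made up most of this sum, to which Omp, Rtp1, Rtp2 and Stoml3 added little. Of the 8 factors of receptor choice and neuron lineage, 6 were detected on all arrays and 0 of 7 tested passed at either threshold, with a median of -0.01. The brightest were the factor Atf5 (2.07), Ebf1 (1.76), the chromatin protein Cbx5 (1.46), the demethylase Kdm1a (0.67), Ldb1 (-1.34) and Ebf2 (-1.41). Lhx2, needed for receptor choice, was flagged on 5 arrays.

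Markers of other tissues differed between animals, and those of muscle were lower in mean in the KI-treated group, with overlapping sums. The summed signal of 10 skeletal muscle markers, all with a probe and 8 detected on all arrays, ran from 6.14 to 100.1 in the KI-treated group and from 25.9 to 190.3 in the control group. All 9 tested were lower in mean in the KI-treated group, with a median difference of -1.17. Of these, 1, the muscle actinin Actn3, passed the unadjusted threshold, with a difference of -1.73 (SE 0.66; adjusted p = 0.366 in limma). At that threshold, 1 of 6 adipocyte markers tested was lower, and 1 of 3 blood and 1 of 5 parathyroid and C cell markers were higher. Of the nerve, lymphocyte and cartilage markers tested, 0 passed it. KI-treated 1 had a summed lymphocyte marker signal of 23.4, where the other animals had 0.668 to 2.70. Ms4a1, a B cell marker, was above background on no array. The part of these differences in the olfactory receptor values was not tested. Without KI-treated 1, 8 members were lower and 0 higher at the unadjusted threshold, where 1251 and 1099 of the 25581 probes tested were.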

How the data were processed

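Thyroid RNA was measured on 13 arrays of 62976 features in 6 slides, scanned in 3 sessions; slides and sessions were treated as batches. The authors deposited scanner files with the fluorescence intensity of each spot, background-subtracted and detrended by Agilent Feature Extraction (version 10.7.3.1, per the file headers), with no scaling across arrays. A deposited table of log2 values, whose normalization is not given in the sources used here and whose ranks follow the spots' median signal, served as an alternative. Intensities near background are uncertain, and precision is limited by the number of arrays. The tables held 0 columns from other samples.

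Spots of a probe were averaged without control and outlier-flagged spots, and log2 of the signal minus the array's 75th percentile over averaged probes was taken. Testing covered the 25717 probes that were well above background on 6 or more arrays and was done with limma (version 3.58.1, R 4.3.3) with Benjamini-Hochberg adjustment at 0.05. The code was tested on simulated data, where 200 probes were changed by a known amount. Of these, 0 were recovered after adjustment at a log2 change of 0.5 and 136 at a change of 1. Single genes had an exact two-sided permutation test over 1716 splits (Python 3.11.15, scipy 1.17.1). Its p-values were not adjusted, although some of the genes were chosen by their small p in limma. The members and gene lists were chosen with earlier results of these data known. Genes named by rule were Olr1262, Olr278, the 8 brightest, the 8 with the smallest p, the 4 with the largest spread, the 3 dimmest, 3 just outside, the most correlated pair and up to 6 of each list; the other members and the markers were named after their values were seen. For a list, the brightest probe stood for a gene. 1 gene that the rule selects from the lists is not reported here. Of the 26 members, 25 were matched to RefSeq by accession and 1, Olr1366, by symbol. Replicate numbers came from the labels. Alternatives were other background corrections and normalizations, filters, batch and replicate blocks, array weights, the methods' t-test, each array left out, and, chosen after seeing the data, the 75th percentile over all gene spots.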

Additional observations from a re-analysis of the deposited data

Results flagged for a closer look

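In 52 sets of values (26 genes in each group), 5 held an animal whose distance to its nearest neighbour was large against the range of its group, where chance flags about 1 in 20 sets. All 5 lay in the KI-treated group and in 4 different animals. KI-treated 3 had the lowest value of Olr3 (-1.08, nearest -0.63). KI-treated 6 had the highest value of Olr59 (-1.13, nearest -2.29). KI-treated 5 had the highest value of Olr567 (-0.28, nearest -1.04) and the lowest of Olr1366 (-2.96, nearest -1.73). KI-treated 2 had the highest value of Olr1452 (-1.29, nearest -1.56).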

How the results depend on the processing

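The number of members rests on the flag: 26 probes (2.09%) were well above background on all arrays, 78 (6.28%) on at least 6, 331 (26.7%) on at least 1, and 85 (6.84%) passed the software's weaker test of a signal above background on all arrays. Leaving out 1 array gave 26 to 30 members (2.09% to 2.42%). With array weights, 55 of 25717 probes passed 0.05 after adjustment and with them 2 members, against 0 members in all other fits; these were Olr1262 and Olr278, whose known fall makes this a description and no test, and the cause was not tested. With the replicate block, 6 members and 1293 of all probes were lower at the unadjusted threshold, and the blocked difference of Olr1262 was -0.94; same-numbered animals did not deviate together (r from -0.22 to 0.06), and none of 12 was closest to its own number, so the numbers do not pair the samples. Over the other alternatives the count of lower members ran from 7 to 13. With no filter it was 7, where 2663 of 45598 probes were lower. With normexp and the 75th percentile it was 13, where 3427 of 25717 were. With 1 array left out, the lowest count was 7 (without KI-treated 2, for example, where 1714 of 25225 probes were lower). The highest was 12 (without control 2, where 2311 of 25436 were). In every fit, 0 members were higher. The t-test that the study names gave 9 lower members before adjustment, where 1923 of 25717 probes were lower, and 0 after it. The median difference of the members stayed between -0.28 and -0.16 and their median r between 0.10 and 0.22. Of the genes tested singly, Olr901, Olr1335, Olr1366 and Olr1381 had an unadjusted p under 0.05 in every fit. The difference of Olr1262 lay between -1.01 and -0.70 and that of Olr278 between -0.66 and -0.26. The sign held for 20 members and turned for 6, all above 0 at first. Over all probes, 1469 were higher and 1802 lower at the unadjusted threshold, quantile normalization gave 1825 and 1455, and normexp with the 75th percentile gave 1166 and 3427. Dim signals near background limit what these arrays can show.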
